A study of Mus musculus with 60 samples.

Results

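The mouse mitochondrial genome contributed 37 of the 47597 entries in each deposited expression table, chosen as every entry whose symbol begins with mt-. They are the 13 mRNAs for subunits of the respiratory chain, the 2 rRNAs of the mitochondrial ribosome and the 22 tRNAs that read the mRNAs. Each entry had the status OK in all 60 libraries, and the coordinates of all 37 matched those of GENCODE release M21 on GRCm38. The plus strand of the reference holds 28 of them, with 12 mRNAs, both rRNAs and 14 tRNAs, and the minus strand holds 9, with mt-Nd6 and 8 tRNAs.

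Mitochondrial DNA is a small circle that is read from both strands as long transcripts, which are then cut into separate RNAs, largely at the tRNAs that lie between the other genes. The mRNAs of the so-called heavy strand carry most of the coding content, and mt-Nd6 is the only mRNA of the light strand. The encoded proteins are core subunits of complex I (mt-Nd1, mt-Nd2, mt-Nd3, mt-Nd4, mt-Nd4l, mt-Nd5, mt-Nd6), complex III (mt-Cytb), complex IV (mt-Co1, mt-Co2, mt-Co3) and the ATP synthase, complex V (mt-Atp6, mt-Atp8). Polymerase, transcription factors and RNA-processing enzymes all come from nuclear genes. Neurons depend on this machinery for most of their ATP, so these transcripts are abundant in brain.

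RNA-Seq was made from tissue labelled cortex or striatum of C57BL-6N mice aged 3 months. In each tissue the labels give 5 groups of 6 libraries, with 3 males and 3 females each, for 10 groups in all. The Δ12 line, made by knock-in of a deletion within exon 12 of Htt that leaves a new splice donor, has +/+, Δ12/+ and Δ12/Δ12 groups. The KO line, a founder in which that knock-in failed and the normal splice donor was lost, has +/+ and KO/+ groups. Each allele stems from a single edited line, and the +/+ mice are described as littermates. The titles number the mice 1 to 3 within each sex, and the same numbers recur in cortex and striatum, so the 2 libraries of a number may come from 1 mouse, although no label says so. P-values therefore measure the spread between these libraries. Values are FPKM, fragment counts divided by an effective transcript length and by the depth of the library. The deposited intervals imply an effective length shorter than the transcript by about a mean fragment. FPKM was rescaled so that the median gene has the same level in every library. Rescaled FPKM is meant unless FPKM as deposited is named. The depth implied by the deposited intervals was about 13800000 to 30300000 fragments per library.

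The labels of tissue and sex did not match the expression of their defining genes in part of the libraries, and Htt overlapped between KO/+ and +/+. The libraries were therefore described in 2 ways. Slc17a7, the vesicular glutamate transporter of cortical excitatory neurons, was above 100 FPKM in 30 libraries (121 to 234 FPKM, called cortex-like) and between 4.81 and 64.8 FPKM in the other 30 (called striatum-like). Both classes held 15 libraries labelled cortex and 15 labelled striatum. All libraries labelled +/+ and Δ12/+ of the Δ12 line and the 6 male-labelled Δ12/Δ12 libraries were cortex-like, while all 24 of the KO line and the 6 female-labelled Δ12/Δ12 libraries were striatum-like. Class and line therefore cannot be told apart, except within the Δ12/Δ12 libraries, where class goes with labelled sex. Drd2, the D2 dopamine receptor of striatal projection neurons, ran from 0 to 18.5 FPKM in the cortex-like and from 29.4 to 61.8 FPKM in the striatum-like libraries. Xist and Ddx3y went against the labelled sex in 30 of the 60 libraries. Htt was at 16.6 to 20.7 in the KO-line +/+ libraries and at 12.7 to 20.0 in those labelled KO/+, of which 6 of 12 were below every KO-line +/+ library. The deletion in exon 12 cannot be read from gene-level values, and Htt alone does not show that a genotype label is wrong. No library was moved to another group, and groups below are the labelled ones.

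Other markers also differed between the classes. The median of the summed choroid plexus markers (3 of 3 higher in striatum-like) was 8.39 in cortex-like and 917 in striatum-like libraries (ranges 1.79 to 434 and 27.9 to 1661), and Folr1 was at 0 in some. For oligodendrocytes (3 of 4 higher in striatum-like) it was 781 and 1382 (439.7 to 1073 and 951 to 2142), and for microglia (3 of 4) 30.7 and 40.5 (19.1 to 43.0 and 30.0 to 51.9). The haemoglobin genes of blood (2 of 2 lower in striatum-like) had medians of 980 and 83.5 (590.4 to 2045 and 57.1 to 122), leptomeningeal markers (1 of 3 higher in striatum-like) 8.95 and 3.49 (3.56 to 13.5 and 2.40 to 7.13), and endothelial markers (2 of 3) 40.3 and 25.4 (28.9 to 72.2 and 17.9 to 32.1). Astrocyte markers (2 of 4) had medians of 142 and 98.8 (103 to 211 and 73.6 to 149). Cortical excitatory markers (1 of 6) had 325 and 258 (237 to 425 and 141 to 342), and striatal projection markers (8 of 8) 189 and 1278 (111 to 652 and 892 to 1793). What these markers contribute to the mitochondrial differences was not tested, and in bulk tissue fewer cells of a type and less RNA per cell cannot be told apart.

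The sequences on which the readings below turn are shown first, in the coding sense and 5′ to 3′, as read from the GENCODE M21 transcripts of GRCm38. The 2 tRNAs are shown because they were the ones most often above 0, with the anticodon in capitals. The methionine tRNA mt-Tm lies at chrM:3845-3913 and the valine tRNA mt-Tv at chrM:1025-1093, both on the plus strand.
mt-Tm: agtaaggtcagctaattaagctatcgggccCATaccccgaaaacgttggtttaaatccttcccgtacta
mt-Tv: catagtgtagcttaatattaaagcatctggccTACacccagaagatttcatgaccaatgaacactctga
The bicistronic pairs are shown because a fragment in the shared bases belongs to both genes. In the stretch at chrM:7907-7989 (plus strand), the 43 bases shared by the end of mt-Atp8 and the start of mt-Atp6 are in capitals. The whole of mt-Nd4l (chrM:9877-10173, plus strand, 297 bases) follows, with the 7 bases shared with mt-Nd4 in capitals.
mt-Atp8/mt-Atp6: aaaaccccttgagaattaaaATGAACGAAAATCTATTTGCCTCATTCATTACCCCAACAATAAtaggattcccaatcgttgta
mt-Nd4l: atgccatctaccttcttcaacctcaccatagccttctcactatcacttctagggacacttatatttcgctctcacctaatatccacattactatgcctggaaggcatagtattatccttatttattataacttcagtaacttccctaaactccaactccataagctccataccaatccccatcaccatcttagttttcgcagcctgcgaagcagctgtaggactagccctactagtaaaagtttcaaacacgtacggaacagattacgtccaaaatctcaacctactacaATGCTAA
The first 294 bases of mt-Nd4l are identical to Gm10222, an entry in a nuclear copy of mitochondrial DNA on chromosome 1. A second copy, Gm28438, differed from mt-Nd3 by T3C (mt-Nd3 base first, counted from 1 at the start of the gene), shown in capitals in the first 33 bases of each at chrM:9459-9491 (plus strand) and chr1:24613087-24613119 (minus strand).
mt-Nd3: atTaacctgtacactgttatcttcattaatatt
Gm28438: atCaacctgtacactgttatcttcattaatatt
The strands differ in composition, which the starts of the neighbouring genes mt-Nd5 (chrM:11742-11831, plus strand) and mt-Nd6 (chrM:13981-14070, minus strand) show with G and T in capitals. Of these 90 bases, 33 were G or T in mt-Nd5 and 61 in mt-Nd6.
mt-Nd5: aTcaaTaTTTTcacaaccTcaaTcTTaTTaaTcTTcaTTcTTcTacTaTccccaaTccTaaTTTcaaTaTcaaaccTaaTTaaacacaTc
mt-Nd6: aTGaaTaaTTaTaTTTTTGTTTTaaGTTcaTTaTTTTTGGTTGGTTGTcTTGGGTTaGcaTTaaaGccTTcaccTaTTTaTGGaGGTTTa
Over its 519 bases, mt-Nd6 was 28.1% G and 43.7% T, while the 12 heavy-strand mRNAs had between 5.88% G (mt-Atp8) and 16.1% G (mt-Co1).

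Levels of most mitochondrial mRNAs went with the expression class, and the size of the step differed widely along the genome. After rescaling, all 13 mRNAs had a higher median in the striatum-like than in the cortex-like libraries, and 9 of them did not overlap between the classes. On FPKM as deposited, the median of mt-Nd3 was lower in the striatum-like libraries, at 268 against 282. Of the 16076 features compared, 19.3% were higher and 16.9% lower in striatum-like libraries without overlap, and the median ratio over all of them was 1.06. As the classes were read from a gene in the same libraries, these are descriptions with no test. The classes also differed in library composition. The entry Rn7s lacked the status OK in 30 cortex-like and 0 striatum-like libraries. The top 10 entries held a median of 84.6% of summed FPKM in cortex-like and 74.6% in striatum-like libraries, with overlap. Median implied depth was higher in striatum-like libraries, also with overlap. What these differences contribute to the mitochondrial steps was not tested. The summed level of the 13 mRNAs ran from 1866 through a median of 3658 to 5944 in cortex-like libraries, and from 10734 through 15127 to 23996 in striatum-like libraries.

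Among the complex I subunits, mt-Nd4l ran from 0 through a median of 11.7 to 52.9 in the cortex-like libraries. It ran from 369 through 537 to 1803 in the striatum-like libraries, a ratio of medians of 45.8. The partner mRNA mt-Nd4 ran from 6.31 through 21.0 to 67.9 and from 279.9 through 432 to 910.3, a ratio of 20.6. Neither gene overlapped between the classes, and every cortex-like library was below every striatum-like one. For mt-Nd2 the cortex-like values ran from 8.15 through 31.8 to 100.4 and the striatum-like ones from 196 through 339.6 to 898, a ratio of 10.7. The ratios of medians were 7.65 for mt-Nd1 and 5.98 for mt-Nd5, again without overlap. At the other end, mt-Nd3 ran from 109.6 through 246 to 477 and from 216 through 302 to 560.2, a ratio of 1.23. Only 1 striatum-like library lay above all cortex-like ones for mt-Nd3, although it is the direct upstream neighbour of mt-Nd4l apart from a tRNA. The ratio of mt-Nd3 to mt-Nd4l had a median of 18.4 in the 29 cortex-like libraries where mt-Nd4l was above 0, and of 0.564 in the striatum-like libraries.

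The complex III subunit mt-Cytb, cytochrome b, ran from 65.4 through 129.6 to 378 in the cortex-like libraries and from 1000.2 through 1344 to 1969 in the striatum-like ones, with no overlap and a ratio of medians of 10.4. The 3 cytochrome c oxidase subunits of complex IV differed less. The catalytic subunit mt-Co1 ran from 396 through 642 to 1364 and from 2646 through 3889.6 to 4695, a ratio of 6.06. Medians of mt-Co2 were 492 and 1786, a ratio of 3.63, also without overlap. For mt-Co3 they were 1138 and 2138, a ratio of 1.88, and 28 of the 30 striatum-like libraries were above all cortex-like ones. The most abundant mRNA also differed between the classes. It was mt-Co3 in 29 of 30 cortex-like libraries and mt-Co1 in the remaining 1, and mt-Co1 in all 30 striatum-like libraries. The share of mt-Co3 in the summed mRNA had a median of 31.6% (24.2 to 34.9%) in the cortex-like and 14.4% (11.4 to 15.9%) in the striatum-like libraries.

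In the ATP synthase pair, mt-Atp8 ran from 0 through 157 to 396 in cortex-like and from 1001 through 1636 to 3860.05 in striatum-like libraries, a ratio of medians of 10.4 without overlap. The overlapping mt-Atp6 ran from 180.2 through 442 to 783 and from 741 through 1201 to 1896, a ratio of 2.72, and 29 of the 30 striatum-like libraries were above all cortex-like ones. The 2 genes share 1 transcript, yet mt-Atp8 over mt-Atp6 had a median of 0.396 (0 to 0.795) in the cortex-like and of 1.36 (0.998 to 2.04) in the striatum-like libraries. For the other shared transcript, mt-Nd4l over mt-Nd4 was 0.687 (0 to 1.37) and 1.23 (1.04 to 1.98). The mt-Atp8 gene has 204 bases, fewer than the implied mean fragment of 222 to 264 bases, and mt-Nd4l has 297. Levels of such short genes, and so both ratios, depend on how the length was corrected, which was not tested.

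**Figure D1:**
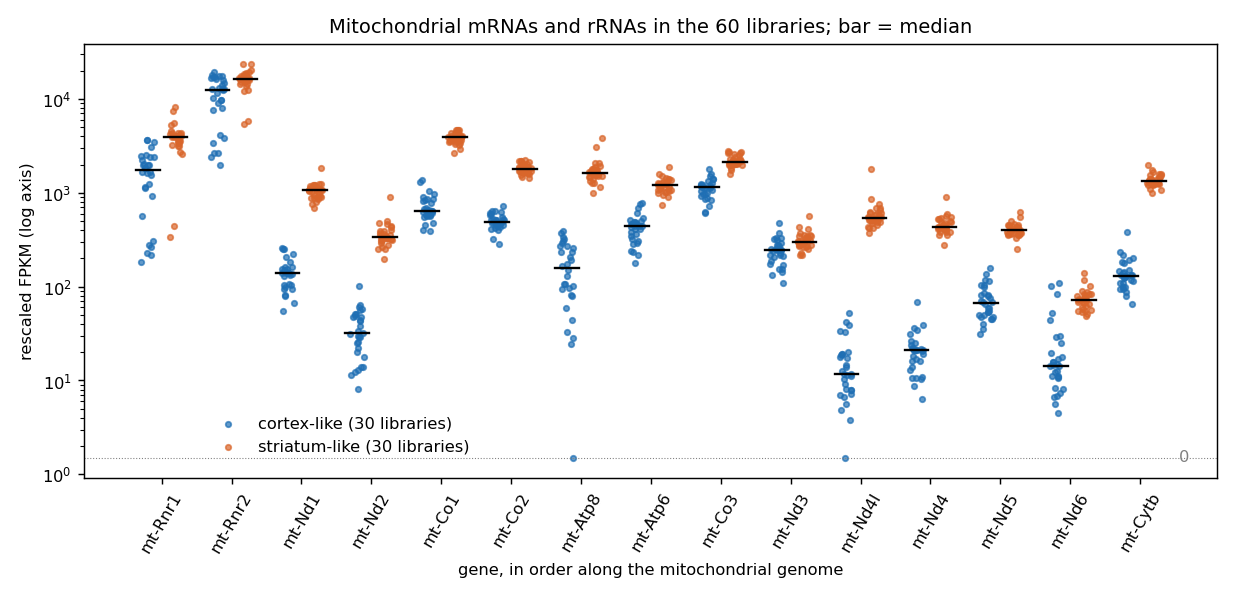
Rescaled FPKM (log axis) of the 2 rRNAs and 13 mRNAs in order along the mitochondrial genome, 1 point per library, 30 cortex-like and 30 striatum-like libraries, with a bar at each median. Points at 0 stand on the dotted line. The classes are apart for 9 mRNAs, farthest for mt-Nd4l, and overlap for mt-Nd3, mt-Co3, mt-Atp6, mt-Nd6 and both rRNAs.

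The light-strand mRNA mt-Nd6 ran from 4.49 through 14.4 to 109 in the cortex-like libraries and from 48.7 through 72.8 to 140.4 in the striatum-like ones, a ratio of medians of 5.05. The classes overlapped, and only 2 striatum-like libraries were above all cortex-like ones. Relative to the 12 heavy-strand mRNAs it was at a median of 0.402% (0.174 to 3.15%) and 0.471% (0.343 to 0.945%). The coefficient of variation of mt-Nd6 over the cortex-like libraries was 112%, the highest among the mRNAs and rRNAs. The next highest was 77.8% for mt-Nd4l and the lowest 18.7% for mt-Co2, with 42.3% for the neighbour mt-Nd5. For mt-Nd6 it was 26.6% in the striatum-like libraries. As mt-Nd5 and mt-Nd6 overlap by 14 bases on opposite strands and the strand setting of the authors' quantification is not given in the sources used here, fragments there cannot be assigned with certainty. Within the classes, mt-Nd6 rose with mt-Nd5. Over the 30 cortex-like libraries Pearson's r was 0.80 and Spearman's rho 0.80 (permutation test, two-sided p = 1e-05 for each, the smallest that 100000 resamples can give, adjusted p = 1.3e-05 over 4 relations). Without the 2 libraries farthest from the median r was 0.63 (p = 0.00028), and without the 6 male-labelled Δ12/Δ12 libraries it was 0.55 and rho 0.65 (n = 24, p = 0.0089 for r). Over the 30 striatum-like libraries r was 0.51 (p = 0.0073, adjusted p = 0.0073) and rho 0.65 (p = 0.00018), with r at 0.61 (p = 0.00045) without the 2 farthest. For 2 heavy-strand mRNAs far apart on the circle, mt-Co1 and mt-Cytb, r was 0.88 in cortex-like and 0.91 in striatum-like libraries, and 0.81 and 0.89 without the 2 farthest (permutation test, p = 1e-05 in each case). The permutations treat the libraries of a class as independent. As these span several labelled groups, and 2 may come from 1 mouse, the p-values may be too small.

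The rRNAs differed less between the classes than most mRNAs. The small-subunit rRNA mt-Rnr1 ran from 185 through 1754 to 3693 in the cortex-like and from 341 through 3964 to 8231 in the striatum-like libraries, a ratio of medians of 2.26. The large-subunit rRNA mt-Rnr2 ran from 1978 through 12460.2 to 19338 and from 5453 through 16330.2 to 23729.7, a ratio of 1.31. Both overlapped between the classes. The summed rRNA over the summed mRNA had a median of 4.00 (0.590 to 6.77) in cortex-like and 1.37 (0.241 to 2.64) in striatum-like libraries. Per the labels, rRNA was depleted before sequencing, so these are levels that remained after depletion, and its part in the differences was not tested. Fragment numbers could be inferred only for the genes whose intervals gave fragments in proportion to FPKM, which those of mt-Co1, mt-Co3, mt-Atp6, mt-Atp8, mt-Nd1, mt-Nd2, mt-Nd4 and mt-Nd5 did not. By this measure, mt-Rnr2 rested on about 51508 to 753042 fragments per library, mt-Cytb on 954 to 41936, mt-Nd6 on 16.7 to 609 and mt-Nd4l on 0 to 1150.1.

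The 22 tRNAs were almost undetected. As a tRNA is far shorter than a fragment, a single fragment stands for a very high FPKM, so tRNA levels are given as the fragments the intervals imply. Only 8 of the 22 were above 0 in any library, and 14 were at 0 in all 60. The methionine tRNA mt-Tm was above 0 in 18 libraries, 17 cortex-like and 1 striatum-like, with up to 7 fragments and 1705610 FPKM as deposited. Its valine counterpart mt-Tv was above 0 in 7 libraries, all cortex-like, with up to 6 fragments. The histidine tRNA mt-Th was above 0 in 3 cortex-like libraries. The other 5 tRNAs, mt-Te, mt-Tq, mt-Tn, mt-Tw and mt-Tc, were above 0 in 1 library each, the last of them striatum-like. As every tRNA had a median of 0 over the 60 libraries, they could not be ranked by level. Of the 33 tRNA values above 0, 22 rested on 1 fragment or less.

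Among the mRNAs, several have near-identical copies in the nuclear insertion on chromosome 1, which shows in the tables as 7 entries on its minus strand. The values of these entries followed those of the mitochondrial genes. Gm28437 (783 bases, no mismatch to mt-Co3) had 0.999 to 1.00 times the deposited FPKM of mt-Co3 in all 60 libraries. The median ratio was 1.00 for Gm28661 and mt-Co2, 0.998 for Gm10925 and mt-Atp6, 1.01 for Gm10222 and mt-Nd4l, 0.888 for Gm28439 and mt-Nd4 and 0.857 for Gm28438 and mt-Nd3. Gm29216, which covers 31.3% of mt-Co1, was at 0.426 of it. How the quantification split the fragments of identical sequence is not given in the sources used here, so the levels of these 7 genes are uncertain. The genes mt-Nd1, mt-Nd2, mt-Atp8, mt-Nd5, mt-Nd6, mt-Cytb and the rRNAs are not the match of any of these 7 entries. Bases that mt-Atp8 shares with mt-Atp6 do lie within Gm10925. On the mitochondrial genome mt-Atp8 lies between mt-Co2 and mt-Atp6. The stretch of the insertion between their copies, Gm28661 and Gm10925, holds no entry and was not compared with mt-Atp8. The level of mt-Atp8 may therefore share this uncertainty. Copies outside this insertion were not searched for.

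**Figure D2:**
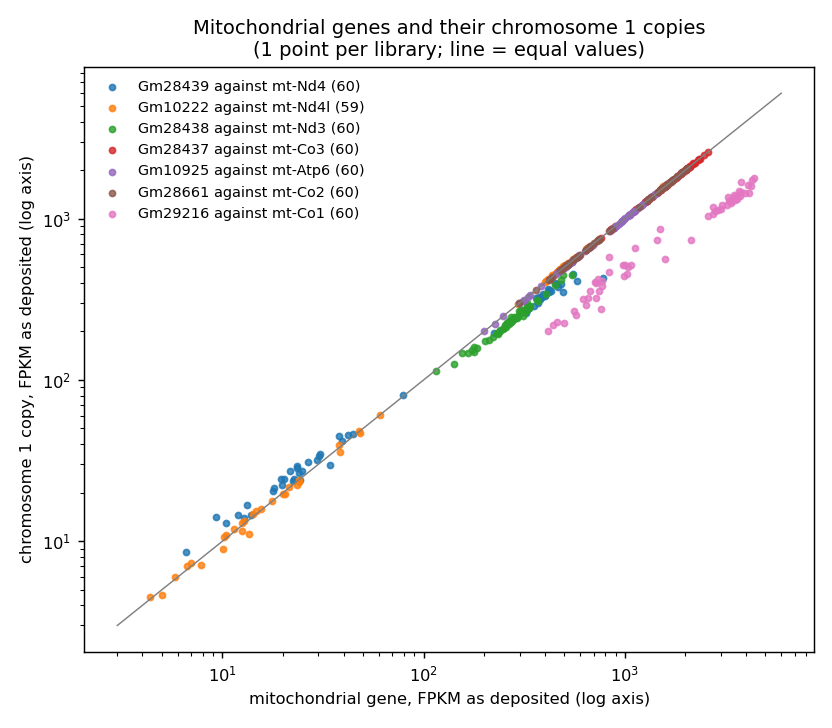
FPKM as deposited (log axes) of 7 chromosome 1 entries against that of the mitochondrial gene each one matches, 1 point per library, with a line at equal values. For mt-Co3, mt-Co2, mt-Atp6 and mt-Nd4l the points lie on or near the line, and for mt-Co1 below it.

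The comparison of the +/+ libraries of the 2 lines, which carry no edited allele, gave the most calls among the mitochondrial genes. In the libraries labelled striatum, 13 of the 17 mitochondrial genes tested were higher in the KO line and none was lower, where 79% of all genes were called, 38.4% higher and 40.7% lower. In those labelled cortex, 15 of 20 were higher and 2 lower, where 68.1% were called, 36.8% higher and 31.3% lower (5821 and 4956 genes, or 4390 and 5705 on FPKM as deposited). Tests used limma on log2(rescaled FPKM + 0.5) with Benjamini-Hochberg adjustment over all genes tested, a scale that understates the change of low genes. Given the background, a call by itself says little here. Since the lines coincide with the 2 expression classes, line and class cannot be told apart in this comparison.

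In the libraries labelled striatum, mt-Nd4l was at 7.06 to 20.3 (median 9.93) in the Δ12-line +/+ and at 458 to 554 (median 496) in the KO-line +/+ group. The difference was 5.38 ± 0.21 (log2, SE, 6 and 6 libraries, adjusted p = 6.4e-10). For mt-Nd4 it was 4.62 ± 0.14 and for mt-Cytb, with 87.5 to 138 against 1108 to 1366, 3.35 ± 0.11. The light-strand mRNA mt-Nd6, at 5.64 to 17.8 against 68.8 to 140.4, differed by 3.12 ± 0.25 (adjusted p = 2.2e-07). The small-subunit rRNA mt-Rnr1 differed by 0.75 ± 0.24 (adjusted p = 0.012). Differences of 0.11 ± 0.23 for mt-Rnr2 (adjusted p = 0.67) and 0.33 ± 0.16 for mt-Nd3 (adjusted p = 0.085) did not pass the test. The remaining mRNAs lay between 0.79 (mt-Co3) and 3.76 (mt-Atp8).

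In the libraries labelled cortex the order was similar. Values of mt-Nd4l were 0 to 39.1 (median 8.72) in the Δ12-line and 422 to 614 (median 510.4) in the KO-line +/+ group, a difference of 6.18 ± 0.80. Here mt-Rnr1 (1.33 ± 0.33, adjusted p = 0.0036), mt-Rnr2 (0.87 ± 0.32, adjusted p = 0.031) and mt-Nd3 (0.56 ± 0.23, adjusted p = 0.047) also passed. In mt-Nd6 the difference was 2.07 ± 0.30 and in mt-Co1 2.83 ± 0.15. The 2 genes called lower were mt-Tm (adjusted p = 0.0003) and mt-Tv (adjusted p = 0.045). Both are listed at 0 in all 6 KO-line libraries, and in the Δ12-line libraries they rested on at most 5 and 6 fragments, so no fold is given.

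**Figure D3:**
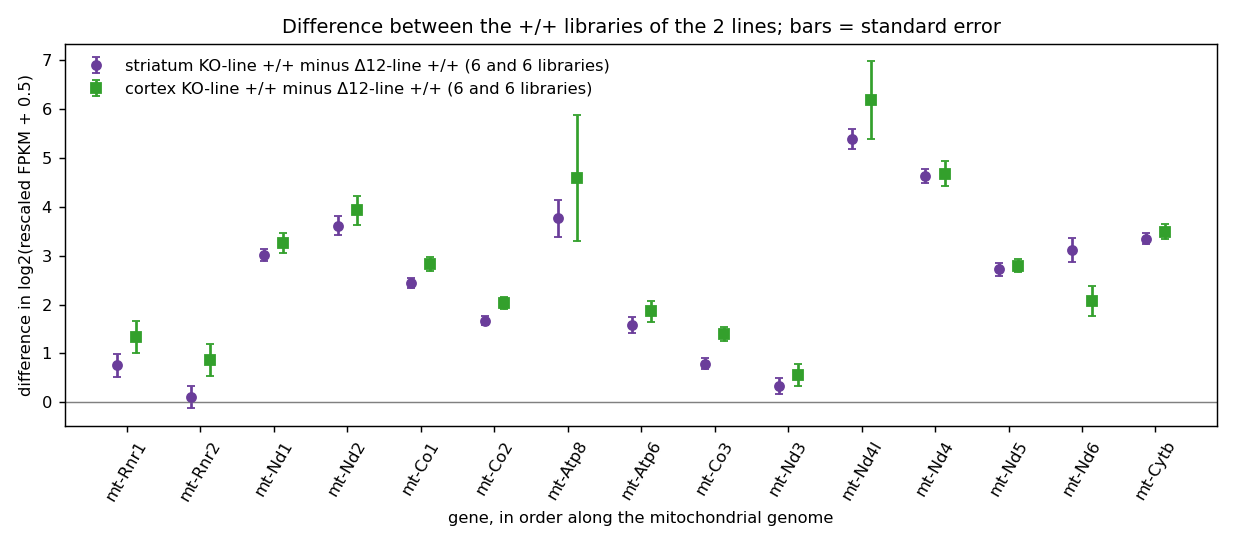
Difference in log2(rescaled FPKM + 0.5) between the KO-line and Δ12-line +/+ libraries for the 2 rRNAs and 13 mRNAs, in order along the genome, for the labelled striatum (circles) and the labelled cortex (squares), 6 and 6 libraries each. Bars are standard errors. In both tissues the difference is largest for mt-Nd4l and small for mt-Nd3 and mt-Rnr2.

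The nuclear genes for mitochondrial transcription and RNA handling moved in both directions in the same comparison. Their list held 41 symbols, some of them alternative names of a gene, of which 37 were found and tested. In the labelled striatum 27 of 37 were called, 8 higher and 19 lower in the KO line, and in the labelled cortex 23, 9 higher and 14 lower. As 79% and 68.1% of all genes were called there, these counts are no result about the list. Tefm, the elongation factor of the mitochondrial polymerase, fell by 2.38 ± 0.11 in the striatum and by 2.21 ± 0.19 in the cortex. Hsd17b10, a subunit of the RNase P that cuts tRNAs out of the long transcripts, fell by 2.54 ± 0.15 and 2.12 ± 0.13. The rRNA methyltransferases Rnmtl1 and Mrm1 fell by 1.36 ± 0.08 in the striatum and by 1.65 ± 0.13 in the cortex, respectively. Over the classes, the polymerase Polrmt had a median of 4.79 in cortex-like and 6.51 in striatum-like libraries, and Tfam, which packages and activates mitochondrial DNA, 16.4 and 7.85, both with overlap. The median difference over the 37 genes was -0.37 in the striatum and -0.05 in the cortex, where that of all genes tested was -0.05 and 0.08.

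The comparison that addresses the Δ12 allele is Δ12/Δ12 against +/+ within the Δ12 line, and here the labelled sexes of the Δ12/Δ12 group fall into different expression classes. In the labelled striatum, 9 of the 17 mitochondrial genes tested were higher and none lower, where 28.4% of all genes were called, 13% higher and 15.3% lower (2040 and 2400 genes, 1312 and 3079 on FPKM as deposited, 2290 and 1553 after quantile normalization). In the labelled cortex, 1 of 22 was called, mt-Nd2, where 0.796% of all genes were called, 0.265% higher and 0.531% lower. The count in the striatum was 1 without the sex covariate, and from 1 to 3 without any single female-labelled library. In the cortex it was 13 without the +/+ library male 2, 3 without the Δ12/Δ12 library male 3 and 0 without any other single library.

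In the labelled striatum, mt-Nd6 was at 109, 83.4 and 29.6 in the male-labelled and at 70.8, 66.6 and 83.7 in the female-labelled Δ12/Δ12 libraries. It was at 5.64 to 17.8 (median 7.76) in the +/+ group. The difference was 2.93 ± 0.32 (log2, SE, 6 and 6 libraries, adjusted p = 0.0043). It kept its side of the threshold in each alternative except the fit on male-labelled libraries alone (3.12, adjusted p = 0.20). The mt-Nd2 mRNA, for a complex I subunit, was at 51.7, 48.9 and 55.7 in the male-labelled and at 316, 357 and 373 in the female-labelled libraries, against 14.0 to 43.0 in the +/+ group. The difference was 2.43 ± 0.31 (adjusted p = 0.014). For mt-Nd5 it was 2.01 ± 0.28 (adjusted p = 0.017), and the other called genes were mt-Nd4 (2.69 ± 0.55), mt-Nd4l (2.60 ± 0.89), mt-Atp8 (2.03 ± 0.62), mt-Cytb (1.89 ± 0.51), mt-Nd1 (1.78 ± 0.44) and mt-Atp6 (1.09 ± 0.25). In mt-Nd4l the 2 sexes were far apart, with 3.79, 7.90 and 18.0 in the male-labelled libraries, within or below the +/+ range of 7.06 to 20.3, and 529 to 583 in the female-labelled ones. The test of this difference between the labelled sexes gave 5.53 (adjusted p = 7.5e-05) for mt-Nd4l and -0.37 (adjusted p = 0.65) for mt-Nd6. Of the 17 genes, 13 differed between the labelled sexes, where 54.8% of all genes did. In the labelled cortex 8 of 22 differed, where 44% of all genes did.

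With the expression class as a covariate, the striatal comparison called 4 mitochondrial genes, mt-Nd6 (3.11, adjusted p = 0.038) and mt-Nd2 (1.51, adjusted p = 0.019) as higher and mt-Rnr1 (-3.18, adjusted p = 0.0066) and mt-Rnr2 (-2.44, adjusted p = 0.012) as lower in Δ12/Δ12. Only the male-labelled Δ12/Δ12 libraries share a class with the +/+ libraries. These differences are therefore in effect those between male-labelled Δ12/Δ12 and male-labelled +/+ libraries, and the other libraries add to the estimate of spread. In the fit on male-labelled libraries alone none of the 4 passed (adjusted p = 0.20, 0.091, 0.10 and 0.10, in the same order). Without the class as a covariate the rRNAs did not pass, at -1.32 ± 0.62 (adjusted p = 0.11) and -1.22 ± 0.49 (adjusted p = 0.072). In the labelled cortex, mt-Nd2 was at 58.1, 100.4 and 60.3 in the male-labelled and at 478, 898 and 442 in the female-labelled Δ12/Δ12 libraries, against 12.4 to 47.1 in the +/+ group. The difference was 3.31 ± 0.61 (adjusted p = 0.039). With the class as a covariate, again in effect among male-labelled libraries, it was 1.60 (adjusted p = 0.48). In the labelled cortex without that covariate, mt-Nd6 differed by 1.96 ± 0.46 (adjusted p = 0.067) and mt-Rnr1 by -1.70 ± 0.53 (adjusted p = 0.068). Of the nuclear list, 7 of 37 were called in the labelled striatum, all lower, among them Rnmtl1 (-0.86 ± 0.14), the exonuclease gene Rexo2 (-0.89 ± 0.22) and Trnt1 (-0.62 ± 0.16), which adds the CCA end to tRNAs, and 0 in the labelled cortex. Over all genes, 28.4% were called in the labelled striatum and 15.3% were lower, so the count of 7 is near the background.

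**Figure D4:**
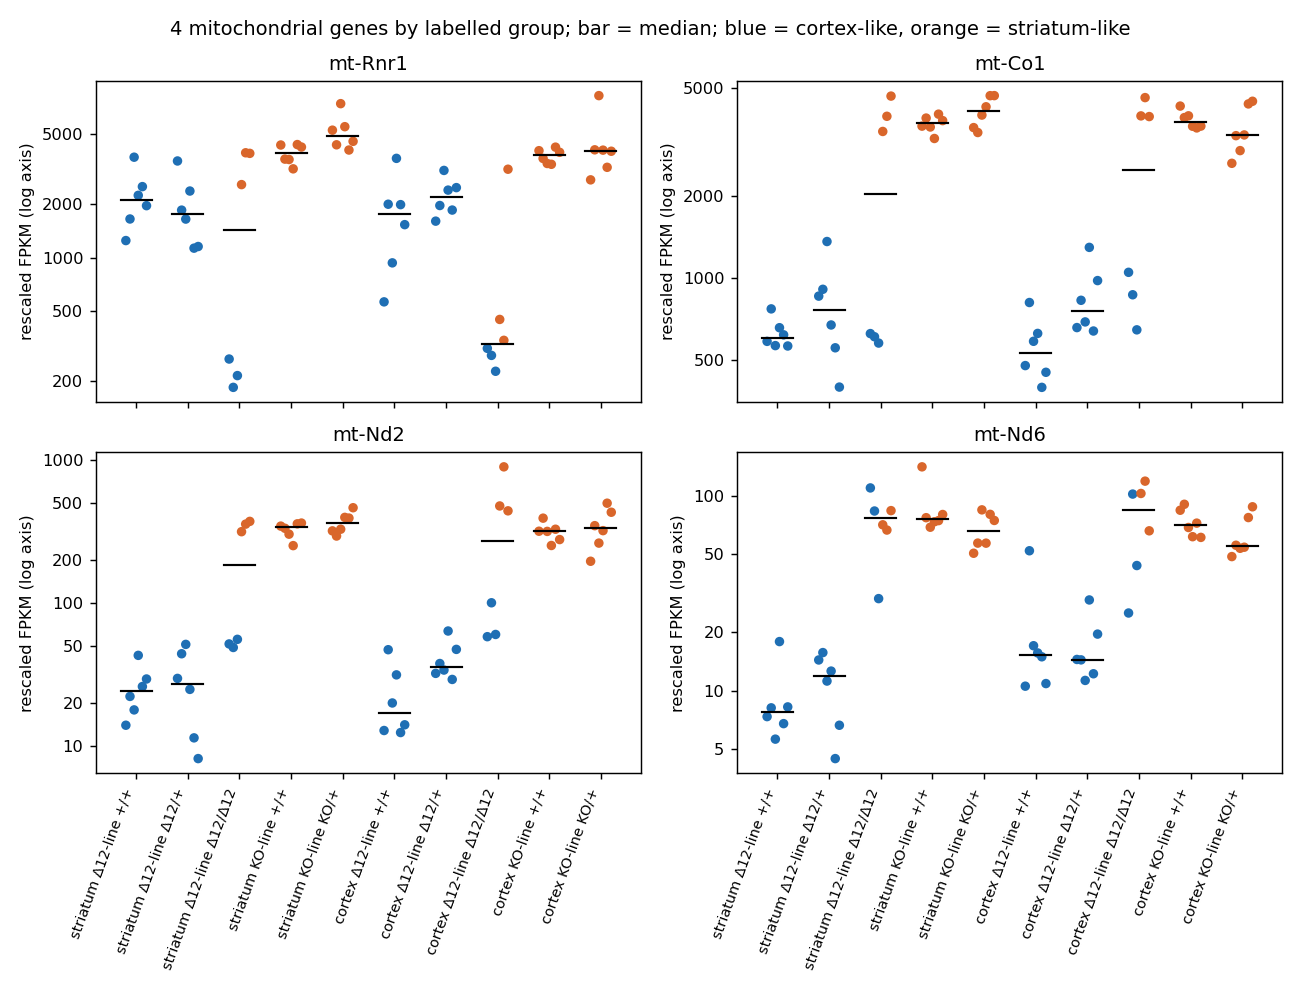
Rescaled FPKM (log axes) of mt-Rnr1, mt-Co1, mt-Nd2 and mt-Nd6 in the 10 labelled groups of 6 libraries, 1 point per library, coloured by expression class, with a bar at the median. The Δ12/Δ12 groups are split between the classes for mt-Co1 and mt-Nd2. In mt-Rnr1, 8 of the 12 Δ12/Δ12 libraries lie below every other library.

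The lowest small-subunit rRNA levels of the series, as left after rRNA depletion, lay in libraries labelled Δ12/Δ12. What the depletion contributes to them was not tested. The 6 male-labelled Δ12/Δ12 libraries, compared with the other 24 cortex-like libraries after their values had been seen, had mt-Rnr1 at 307, 280.1 and 228 in the labelled cortex and at 267, 185 and 215 in the labelled striatum. The other 24 ran from 562 through 1968 to 3693. The ranges did not overlap and the medians differed 7.95-fold. Of 15232 features, mt-Rnr1 was the only one, 0.00657%, lower in all 6 without overlap, and 0.0131% were higher without overlap. The large-subunit rRNA mt-Rnr2 was at 1978 to 4088 (median 2644) against 3378 to 19338 (median 12971), with 4 of the 6 below all others. The next lowest mt-Rnr1 values of the 60 libraries, 341 and 447, were in 2 of the female-labelled cortical Δ12/Δ12 libraries, which are striatum-like, while the third of them was at 3158. The 3 female-labelled striatal Δ12/Δ12 libraries were at 2585 to 3912, inside the range of the other libraries.

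In the same 6 libraries the summed mRNA was not lower, with a median of 3777, against 3643 in the other 24. The rRNA over mRNA ratio was therefore 0.590 to 0.842, against 1.79 to 6.77, without overlap. Single mRNAs went both ways, all with overlap. Medians were lower for mt-Atp8 (102 against 178), mt-Nd4l (10.4 against 12.3) and mt-Co1 (635 against 648), and higher for the other mRNAs. The light-strand mRNA mt-Nd6 was at 25.0 to 109 (median 63.6) against 4.49 to 52.1 (median 12.4), with 3 of 6 above all others, and its level relative to the summed heavy-strand mRNAs was 0.513 to 3.15% against 0.174 to 1.39%. For mt-Nd5, 3 of 6 were above all others, with 84.8 to 158 against 31.3 to 116. Implied depth, Slc17a7 and the scaling factor overlapped between the 6 and the 24 libraries. These 6 libraries share labelled line, genotype and sex, which cannot be told apart from anything else they share. They also follow one another in the order in which the series lists its libraries. Directly after them come the cortical Δ12/Δ12 libraries female 1 and female 2, which had the next lowest mt-Rnr1. In that order all cortex-like libraries come before all striatum-like ones. What the order stands for is not given in the sources used here.

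Against the 6 male-labelled +/+ libraries of the Δ12 line, with both labelled tissues in 1 fit and the tissue as a covariate, mt-Rnr1 had a log2 difference of -2.54 ± 0.37 (6 and 6 libraries, limma, adjusted p = 0.068) and mt-Rnr2 one of -1.70 ± 0.36 (adjusted p = 0.15). Differences above 0 were found for mt-Nd2 (1.57 ± 0.27, adjusted p = 0.087), mt-Nd5 (0.99 ± 0.17, adjusted p = 0.084) and mt-Nd6 (2.15 ± 0.54, adjusted p = 0.19). None passed the threshold, and of 15595 genes in this fit 0 did. With the 2 tissues averaged per labelled mouse number (3 and 3 mice), the differences were -2.54 ± 0.33 for mt-Rnr1 (adjusted p = 0.10) and -1.70 ± 0.35 for mt-Rnr2 (adjusted p = 0.29), with 0 of 22 mitochondrial genes and 12 of 15595 genes called. Without the cortical +/+ library male 1, whose mt-Rnr1 of 562 was the lowest outside the Δ12/Δ12 group, both rRNAs passed (-2.80 and -2.01, adjusted p = 0.039 for each). Leaving out the +/+ value nearest to the low group favours a pass, and without any other single library no rRNA passed. This comparison was chosen after the mt-Rnr1 values had been seen. As the mouse numbers recur in both tissues, the 6 and 6 libraries may stand for 3 and 3 mice, and the p-values of the fit over libraries may be too small.

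**Figure D5:**
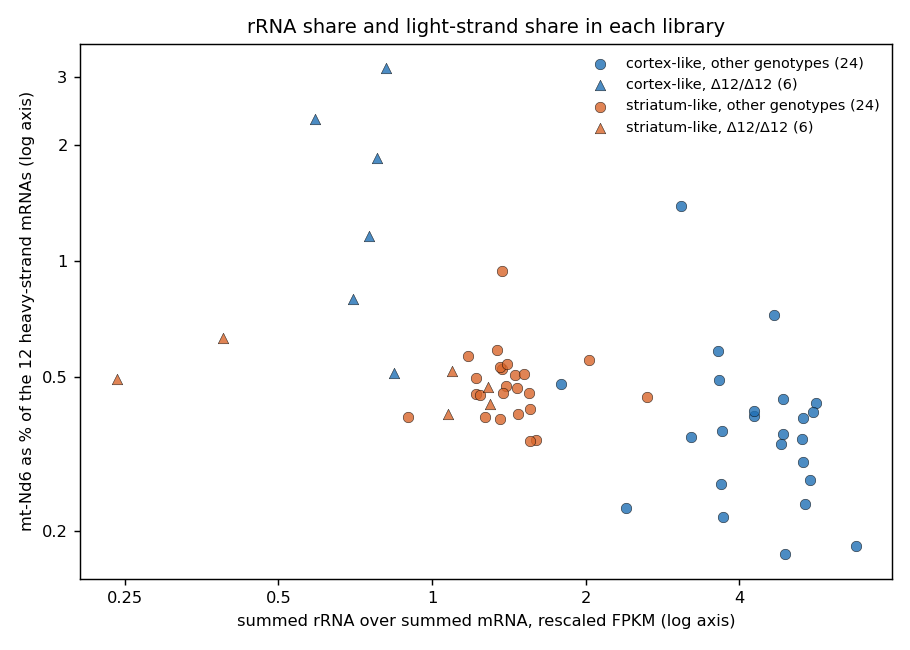
Share of mt-Nd6 relative to the 12 heavy-strand mRNAs in percent (log axis) against the ratio of summed rRNA to summed mRNA (log axis), 1 point per library, coloured by expression class, with triangles for Δ12/Δ12. The 6 cortex-like Δ12/Δ12 libraries have ratios of 0.590 to 0.842, left of the other 24 cortex-like libraries at 1.79 to 6.77.

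Heterozygous Δ12 libraries did not differ detectably from +/+ in any mitochondrial gene. In the labelled striatum 0 of 18 were called, where 0.00651% of all genes were, all of them higher. The 15 mRNA and rRNA differences ran from -0.24 to 0.49 with standard errors of up to 0.70, 9 of them positive, and 0 had an unadjusted p under 0.05. In the labelled cortex 0 of 20 were called, where 0.052% were, 0.0065% higher and 0.0455% lower. Here 14 of 15 differences were positive (-0.08 to 2.26), and 7 of 15 had an unadjusted p under 0.05, as did 1349 of 15387 genes in all. The cytochrome oxidase mRNA mt-Co3 was at 610.4 to 1135 in the +/+ and at 1141 to 1796 in the Δ12/+ libraries, with a difference of 0.65 ± 0.18 (adjusted p = 0.32). Levels of mt-Rnr2 were 3378 to 17647 and 12755 to 19338, with overlap (0.83 ± 0.33, adjusted p = 0.54).

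No mitochondrial gene was called between the KO/+ and the +/+ libraries of the KO line. In the labelled striatum 0 of 15 mitochondrial genes were called, where 8.14% of all genes were, 3.93% higher and 4.21% lower (609 and 653 genes, 27 and 321 on FPKM as deposited). The differences ran from -0.34 (mt-Nd6) to 0.38 (mt-Rnr1), 14 of 15 were positive, and 4 had an unadjusted p under 0.05, as did 3420 of 15496 genes in all. The small-subunit rRNA was at 3174 to 4353 in the +/+ and at 4055 to 7414 in the KO/+ libraries, with overlap (0.38 ± 0.16, adjusted p = 0.17). In the labelled cortex 0 of 16 were called, where 0.129% were, 0.00647% higher and 0.123% lower. Differences ran from -0.23 (mt-Nd6) to 0.31 (mt-Atp8), 5 of 15 were positive and 0 had an unadjusted p under 0.05, against 2209 of 15458 genes in all. In this tissue mt-Co1 was lower in KO/+ among the male-labelled libraries but not among the female-labelled ones, a difference that did not pass. It was at 2646 to 3345 in the male-labelled KO/+ and at 3897 to 4297 in the male-labelled +/+ libraries, and at 3365 to 4476 and 3571 to 3627 in the female-labelled ones. The test of the difference between the labelled sexes gave 0.60 for mt-Co1 (adjusted p = 0.99), and it called 0 of 16 mitochondrial genes, of which 12 had an unadjusted p under 0.05, against 673 of 15458 genes in all. As mitochondrial mRNAs varied together (r = 0.91 for mt-Co1 and mt-Cytb in striatum-like libraries), these 12 are not separate results. Htt was within the KO-line +/+ range in 6 of the 12 libraries labelled KO/+, as given above.

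Between the labelled tissues, over all 60 libraries, 0 of 23 mitochondrial genes were called, as were 0% of 16076 genes. The 15 mRNA and rRNA differences ran from -0.29 (mt-Rnr1) to 0.26 (mt-Nd6), and 0 of 15 had an unadjusted p under 0.05, against 393 of all genes. Both labelled tissues held 15 libraries of each class. In each of these comparisons the median difference of all genes tested was between -0.05 and 0.08.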

How the data were processed

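RNA was extracted from cortex and striatum, depleted of rRNA and sequenced from directional libraries (60 samples, 1 table each). The authors deposited FPKM per gene with interval bounds and a status, and no read counts. The submitters' processing notes name bcl2fastq 2.20, Trimmomatic 0.30, TopHat2 2.0.14, SAMtools 1.3, HTSeq 0.6.1p1 and GRCm38.p4. The quantifier, its annotation and its strand setting are not given in the sources used here. Fragments and depth were inferred from the bounds.

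From the 47597 entries, 23 were dropped, among them Rn7s, because at least 1 library did not list them as OK. FPKM was rescaled by median-of-ratios factors from the 13235 entries above 0 in all libraries. Differences were fitted with limma 3.58.1 (R 4.3.3) on log2(rescaled FPKM + 0.5) for genes with a mean of at least 0.5, within the groups compared, with labelled sex as a covariate, Benjamini-Hochberg adjustment over all genes tested and a threshold of 0.05. The procedure was tested on simulated data. Correlations used 100000 permutations (scipy 1.17.1).

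Groups followed the labels. For 1 striatal library labelled KO/+ the title names the other line, and the genotype label was used. The 37 members, the nuclear and marker lists and the classes (Slc17a7 above 100 FPKM) were chosen with earlier results of these data known. Named genes were all mRNAs and rRNAs, tRNAs called in any comparison, in each comparison up to 3 called nuclear genes (lowest adjusted p), and the chromosome 1 entries. The other tRNAs above 0, the nuclear genes Polrmt and Tfam and the split of the cortex-like libraries were chosen after their values were seen. Alternatives were another scaling, pseudocount, filter, covariates, a replicate block and leaving out single libraries.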

Additional observations from a re-analysis of the deposited data

Results flagged for a closer look

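In 10 of the 150 sets of 6 libraries tested, 1 library stood apart from the other 5 of its group by Dixon's criterion, the gap to the nearest library over the range of the group, which chance gives in about 1 in 20 sets. For mt-Rnr1 these were the cortical KO/+ library male 3, at 8231 with the others at 2750.0 to 4065, and the cortical Δ12/Δ12 library female 3, at 3158 with the others at 228 to 447. The latter also stood apart for mt-Rnr2, at 14479 against 2648 to 5888. The striatal KO-line +/+ library female 1 had the lowest mt-Rnr2 of its group, 13655, against 16178 to 17568. In mt-Atp8 the cortical KO/+ library female 2 was at 3041, against 1264 to 1810.2.

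The cortical Δ12-line +/+ library male 2 stood apart for mt-Nd4l, at 39.1 against 0 to 11.1, and for mt-Nd6, at 52.1 against 10.5 to 17.0. The cortical Δ12/+ library female 1 had mt-Nd4l at 42.0, against 11.4 to 19.2. For mt-Nd6, the striatal KO-line +/+ library male 1 was at 140.4, against 68.8 to 80.0, and the striatal Δ12-line +/+ library female 1 at 17.8, against 5.64 to 8.26.

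The difference between Δ12/Δ12 and +/+ differed between the labelled sexes, by the interaction term of a limma fit, for 13 of 17 mitochondrial genes in the labelled striatum and 8 of 22 in the labelled cortex, where 54.8% and 44% of all genes differed. Labelled sex and expression class cannot be told apart there. In the other 7 such tests, between labelled sexes or tissues, 0 mitochondrial genes passed, with 0 to 12 at an unadjusted p under 0.05.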

How the results depend on the processing

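The striatal Δ12/Δ12 comparison called 9 mitochondrial genes, and 1 without the sex covariate, 1 with the replicate block, 4 with the class as a covariate, 0 on male-labelled libraries, 12 of 16 on female-labelled ones (10929 of 15522 genes) and 1 to 12 without single libraries. Counts of 3, 3 and 2 followed from leaving out the +/+ females 1, 2 and 3, and of 1, 2 and 1 the Δ12/Δ12 females 1, 2 and 3. The cortical one called 1, and 4 after quantile normalization, 12 of 17 on female-labelled libraries (where 8920 of 15787 genes were called), 0 without the filter, without the sex covariate, with the replicate block, with the class or on male-labelled libraries, and 0 to 13 without single libraries. The fit of male-labelled libraries in both tissues called 0, 1 without the tissue covariate, 0 with the tissues averaged per labelled mouse number and 0 to 2 without single libraries. Line comparisons called 13 to 15 (striatum) and 14 to 17 (cortex) without single libraries, and the other comparisons 0. The class ratio of summed mRNA was 4.14, and 3.20 on FPKM as deposited. That of mt-Nd3 was 1.23, and 0.950 on FPKM as deposited, the only mRNA whose class ratio turned. In the Δ12/Δ12 comparisons, the fit with the class as a covariate and the fit on male-labelled libraries estimate the same difference, so they are not independent alternatives. The cause of each change was not tested.

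Signs turned in the striatal line comparison for mt-Rnr2 (-0.0937 on FPKM as deposited, -0.032 without the Δ12-line +/+ male 1, up to 0.19 without the Δ12-line +/+ male 3). In the striatal Δ12/Δ12 comparison they turned after quantile normalization for mt-Rnr1 (0.49) and mt-Rnr2 (0.048), on female-labelled libraries for mt-Rnr1 (0.47), and both with the class as a covariate and on male-labelled libraries for mt-Co1 (-0.0918 and -0.091), mt-Co2 (-0.14 and -0.14) and mt-Nd4l (-0.16 and -0.16). In the cortical one, mt-Rnr1 (0.49) and mt-Rnr2 (1.99) turned after quantile normalization. On FPKM as deposited the median of all genes shifted to -0.23 in the striatal and -0.16 in the cortical line comparison. Fits by labelled sex and the male-labelled fits were added after seeing the data.

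Same-numbered libraries did not deviate together (mean correlation of deviations -0.07 to 0.03 over the comparisons), so the replicate numbers were not taken to pair them. The replicate block gave 15 calls in the cortical and 13 in the striatal line comparison. Nor did the cortical and striatal libraries of the same number (mean correlation -0.01 over 30 pairs, -0.16 to 0.15). The tRNAs and, in cortex-like libraries, mt-Nd4l and mt-Nd6 rested on few fragments, which limits their precision.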
